A study of Mus musculus with 36 samples.

Results

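Libraries 21 to 24 are 4 of the 12 mouse libraries made from embryonic dorsal telencephalon at E17.5 (day of gestation), in a series of 36 libraries. They were picked by library number and were compared with the other 8 E17.5 libraries, numbered 13 to 20. The set holds 1 wild type female (library 21), 1 heterozygous female (library 22), 1 heterozygous male (library 23) and 1 wild type male (library 24). The other 8 hold 2 embryos of each sex and genotype. All embryos were of the C57BL/6J strain, were untreated as far as the labels say, and were either wild type or heterozygous for a loss of Chd8 (Chd8+/-), with no description of the allele. Chd8 encodes a chromatin remodeller of the chromodomain helicase family. PolyA-enriched RNA was sequenced for each embryo separately, after the medial wall of the dorsal telencephalon, which holds the hippocampal primordium, had been cut away. The labels describe pairs matched for litter and sex and give the 4 members of the set the replicate number 3 within their sex and genotype, but they do not say which embryos shared a litter, a day of dissection or a batch of library preparation. Litter, exact age, handling and batch therefore cannot be told apart in what follows. Genes of early and late cortex were taken from 12 E12.5 libraries of dorsal telencephalon and 12 P25 (postnatal day 25) libraries of neocortex. Both of these ages hold wild type and Chd8 heterozygous mice of both sexes.

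The set was chosen because earlier work on the same counts had found it apart from the other E17.5 libraries. Every gene measured in these 12 libraries counts as used in that choice, so differences between the set and the others are given with their sizes and spread and without a test. Expression is given as counts scaled by library size (CPM). A gene is called higher in the set when all 4 of its libraries lie above all 8 others, and lower when all 4 lie below them. The log2 differences are set minus others from a fit with sex and genotype as covariates, ± standard error (SE). They are not corrected for gene length, so levels of different genes are not compared.

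Late in gestation the dorsal telencephalon holds dividing radial glia and intermediate progenitors, newborn neurons that move into the upper layers, deep-layer neurons that already extend axons and form first contacts, and the first cells of the oligodendrocyte and astrocyte lineages. Interneurons enter it from the ventral telencephalon. Because little cholesterol crosses from blood to brain, neural cells make their own through the mevalonate and sterol pathway, whose genes are switched on together by the transcription factor SREBP-2 when sterols in the endoplasmic reticulum run low.

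Total counts were 31734332 to 36542286 in the set and 23774502 to 34919009 in the other libraries (means 34820109 ± 2128790 SD, n = 4, and 31825707 ± 3532790, n = 8). Depth did not enter the choice of the set, and its difference did not pass an exact permutation test (two-sided p = 0.143, adjusted p = 0.286 over 2 measures, with 0.00202 the smallest p that 4 against 8 can give). Genes with at least 10 counts numbered 17892 to 18546 in the set and 17198 to 18516 in the others (exact permutation p = 0.339, adjusted p = 0.339). This number comes from the same gene counts as the choice of the set. Its p-value is therefore a description, and no conclusion is drawn from it. The sex labels held in all 12 libraries, with Xist at 2946 CPM or more in females and at 0.545 CPM or less in males. The genotype labels held too, with Chd8 at 345 and 337 CPM in wild type libraries 21 and 24, at 239 and 226 CPM in heterozygous libraries 22 and 23, and in the others at 337 to 351 CPM in wild type and 245 to 256 CPM in heterozygotes. No pair of libraries of the same sex and genotype was a repeat deposit, since their counts differed by a chi-square of at least 6.49 per degree of freedom. In a principal component analysis of log2 CPM, the first component (21.4% of the variance) separated the sexes. The second component (12.8%) placed the set at 11.6 to 18.9 and the others at -21.6 to 4.81.

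Of 18991 genes measured, 466 were higher in the set (2.45% of those tested) and 393 were lower (2.07%), together 4.52%. Of these, 73 (0.384%) and 106 (0.558%) differed by a ratio of 5 to 4 or more. These shares describe how the set was chosen and support nothing by themselves. The differences were small. The median log2 difference was 0.19 among the genes called higher, -0.23 among those called lower and 0.00 over all genes, 48.9% of which were above 0. Genes of sterol and fatty acid synthesis and genes that rise with cortical maturation were on the higher side. Genes of cell division and other genes that fall with maturation were on the lower side. The plot of gene lists sets these beside lists of cell types, neighbouring regions and stress responses.

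**Figure D1:**
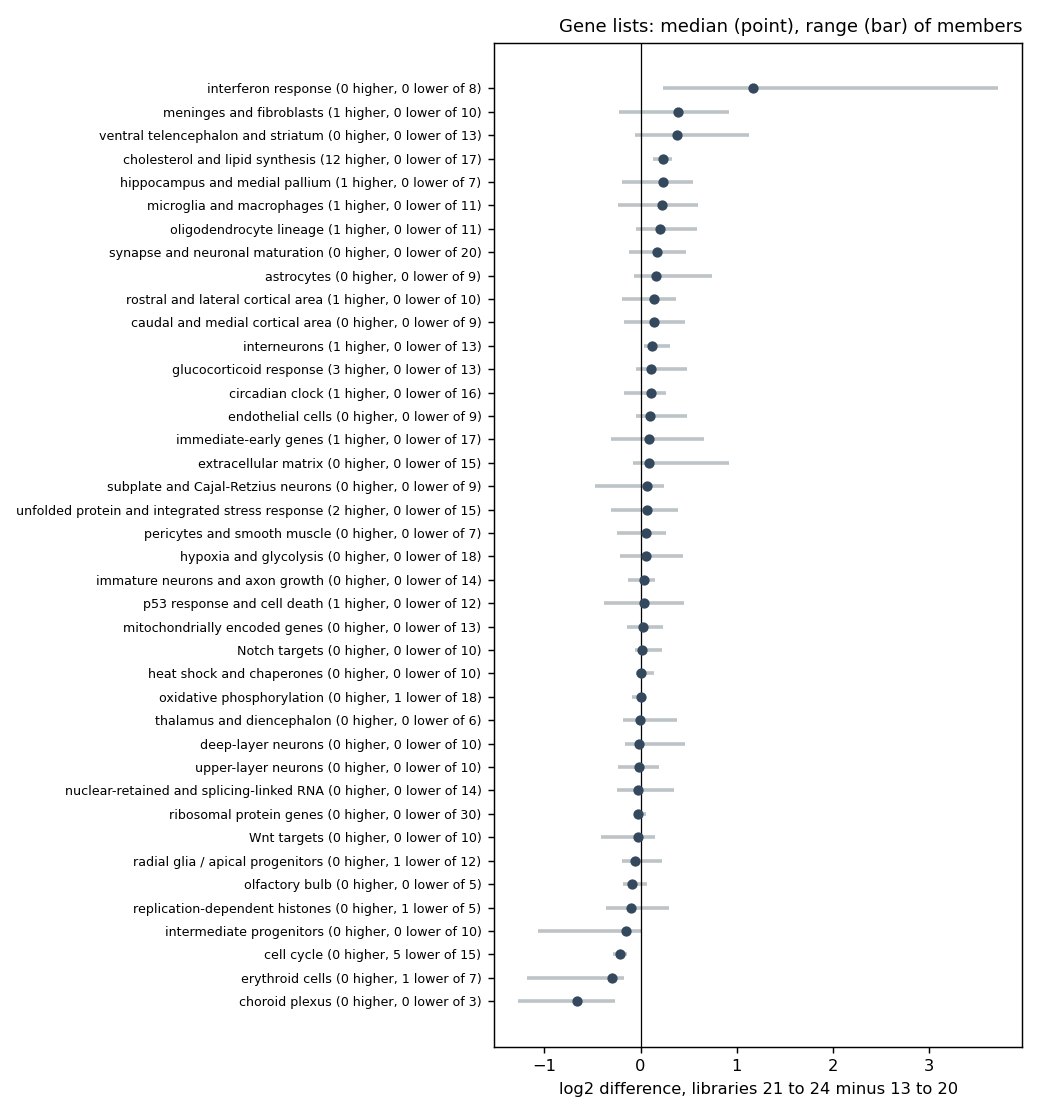
Log2 difference between libraries 21 to 24 and 13 to 20 (x axis) for 40 gene lists, sorted by median. Points are medians over the measured members, bars run from the lowest to the highest member, and the labels count members whose set and other libraries do not overlap. The sterol list has 12 of 17 members higher and a narrow bar wholly above 0, and the cell cycle list has 5 of 15 lower and a narrow bar wholly below 0, while the interferon list has the highest median with no member called.

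The clearest group was the sterol and lipid synthesis list. All 17 members had a log2 difference above 0 (range 0.13 to 0.33, median 0.24), and 12 were higher in the set, against 2.45% of all genes. Among the 12 were Srebf2, which encodes SREBP-2 itself, Hmgcs1 at the entry to the mevalonate pathway, Idi1, Fdft1, Sqle, Cyp51, Msmo1 and Dhcr7, which lead from isoprenoids to cholesterol, and Fasn and Scd2, which make and desaturate fatty acids. The summed level of the list was 4526, 4460, 4527 and 4556 CPM in libraries 21, 22, 23 and 24. In the other 8 libraries the lowest sum was 3609 CPM, the median 3918 CPM and the highest 4037 CPM, so the groups did not overlap and the set was also the tighter of them.

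Hmgcs1, the cytosolic HMG-CoA synthase, was at 733, 779, 764 and 812 CPM in libraries 21 to 24 and at 552 to 709 CPM (median 664) in the others, a log2 difference of 0.28 ± 0.059. For Cyp51, the lanosterol demethylase, the 4 libraries were at 239, 239, 237 and 243 CPM against 177 to 208 CPM (median 203), a log2 difference of 0.28 ± 0.040. In both genes the set lay in a narrow band above the others. Idi1, the isomerase that makes the isoprenoid building blocks interchangeable, was at 29.5, 32.04, 29.7 and 28.2 CPM against 21.4 to 27.4 CPM (median 24.3), a log2 difference of 0.29 ± 0.058. Srebf2 was at 224, 206, 223 and 213 CPM against 182 to 197 CPM (median 191), a log2 difference of 0.19 ± 0.033.

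Of the 17 members 5 were not called, Fdps, Sc5d, Lss and Insig1 among them. Insig1, which holds SREBP in the endoplasmic reticulum, was at 85.2 and 86.1 CPM in libraries 21 and 22, at 78.8 and 76.9 CPM in libraries 23 and 24, and at 69.1 to 79.2 CPM in the others. It was thus above the others in the females of the set and within their range in the males. Fdps, the farnesyl diphosphate synthase, reached 16.6 to 18.6 CPM in the set and 11.3 to 17.2 CPM in the others, a log2 difference of 0.31 ± 0.083 with overlapping groups.

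Promoter windows of 300 bases around the RefSeq gene start (GRCm38.p6) were available for 10 of the 17 sterol genes, as 12 windows. A motif like the sterol response element bound by SREBP, searched as TCACNCCA on both strands, was found in 3 of these 12 windows (25%) and in 4.36% of all 32851 windows. The genes of these 3 windows were all higher in the set. Cyp51, Dhcr7, Fasn and Idi1 were also higher and had no match, as had Insig1, Sc5d and Lss, which were not called. The 3 windows are shown with the match in capitals and each sequence written 5′ to 3′ on the strand of its gene.
Hmgcs1, chr13:119690101-119690400, plus strand: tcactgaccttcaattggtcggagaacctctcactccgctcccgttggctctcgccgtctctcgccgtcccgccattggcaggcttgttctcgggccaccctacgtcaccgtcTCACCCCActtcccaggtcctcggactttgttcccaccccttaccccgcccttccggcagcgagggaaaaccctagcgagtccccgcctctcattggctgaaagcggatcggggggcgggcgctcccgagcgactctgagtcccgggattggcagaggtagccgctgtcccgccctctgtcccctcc
Srebf2, chr15:82147019-82147318, plus strand: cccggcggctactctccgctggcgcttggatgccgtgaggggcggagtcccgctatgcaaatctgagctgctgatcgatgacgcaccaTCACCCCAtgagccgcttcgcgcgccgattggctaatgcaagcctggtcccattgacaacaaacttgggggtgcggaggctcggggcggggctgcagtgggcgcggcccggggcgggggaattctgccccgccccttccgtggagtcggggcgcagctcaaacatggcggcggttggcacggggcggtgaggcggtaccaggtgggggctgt
Msmo1, chr8:64733529-64733828, minus strand: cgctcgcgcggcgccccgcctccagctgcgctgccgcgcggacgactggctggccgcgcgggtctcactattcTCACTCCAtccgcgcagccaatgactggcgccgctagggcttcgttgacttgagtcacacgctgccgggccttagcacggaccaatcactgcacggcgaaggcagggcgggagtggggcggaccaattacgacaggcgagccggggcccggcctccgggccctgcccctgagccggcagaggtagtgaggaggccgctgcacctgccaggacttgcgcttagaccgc
The CCAAT motif, bound by the factor NF-Y that often acts beside SREBP and whose first letters can overlap the last letters of a TCACNCCA match, was found in 10 of the 12 sterol windows (83.3%) and in 37.4% of all windows. These matches describe letters in the windows and were not tied to binding in these samples.

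Most sterol genes did not pass the threshold for a change between the 2 outer ages of the series. A comparison of these ages cannot show a rise and fall between them. Genes of early and late cortex were taken from the 12 E12.5 and 12 P25 (postnatal day 25) libraries, which played no part in choosing the set. In a comparison of P25 with E12.5 with sex and genotype as covariates, 6701 of 21230 genes (31.6%) rose by a log2 of at least 1 and 5757 (27.1%) fell by at least that much (edgeR's quasi-likelihood test, Benjamini-Hochberg adjusted p under 0.05). The first are called late genes and the second early genes. The tissue was titled neocortex at P25 and dorsal telencephalon at E12.5, so the axis also carries that change of dissection. Of the 17 sterol genes, 0 were late and 3 were early, with a median P25 minus E12.5 log2 difference of -0.48. Hmgcs1 was at 501 CPM on average at E12.5 and at 465 CPM at P25.

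Over all genes the set lay toward the late side of this axis. Of the 5130 late genes measured at E17.5, 284 (5.54%) were higher in the set and 35 (0.682%) lower, and 68.8% had a log2 difference above 0. Of the 5101 early genes, 33 (0.647%) were higher and 212 (4.16%) lower, and 32.4% had a difference above 0. Genes that were neither early nor late showed no such lean, with 149 of 8319 higher (1.79%) and 145 lower (1.74%). Read the other way, 60.9% of the genes higher in the set were late and 7.08% early, and 54.1% of those lower were early and 8.93% late, against 27.7% late and 27.5% early among all genes. With library 22 left out, which widened the calls to 885 higher and 865 lower, 511 late genes were higher and 469 early genes lower. The median shift was small, 0.08 for late genes and -0.05 for early genes on the log2 scale. Across 18550 genes the set difference and the P25 minus E12.5 difference had a Pearson correlation of 0.31 and a Spearman correlation of 0.32, which is a description across genes that are not independent.

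The difference between the mean centred log2 CPM of late and of early genes gives each library 1 value. It was 0.09, 0.07, 0.11 and 0.12 in libraries 21 to 24. In the other 8 libraries it ran from -0.17 in library 19 to 0.03 in library 16, with a median of -0.03, so the set lay above all of them. The other libraries were spread more widely than the set. Libraries 13, 15 and 19 had the 3 lowest values of this index (-0.08, -0.09 and -0.17), the 3 highest cell cycle sums (1134, 1080 and 1161 CPM) and the 3 lowest sterol sums (3609, 3682 and 3648 CPM). At the end away from the set, the 3 measures thus pointed to the same 3 libraries, although the cell cycle genes are themselves among the early genes. Library 15 was also the shallowest, at 23774502 counts, and libraries 13 and 19 were not, at 33837631 and 34919009.

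**Figure D2:**
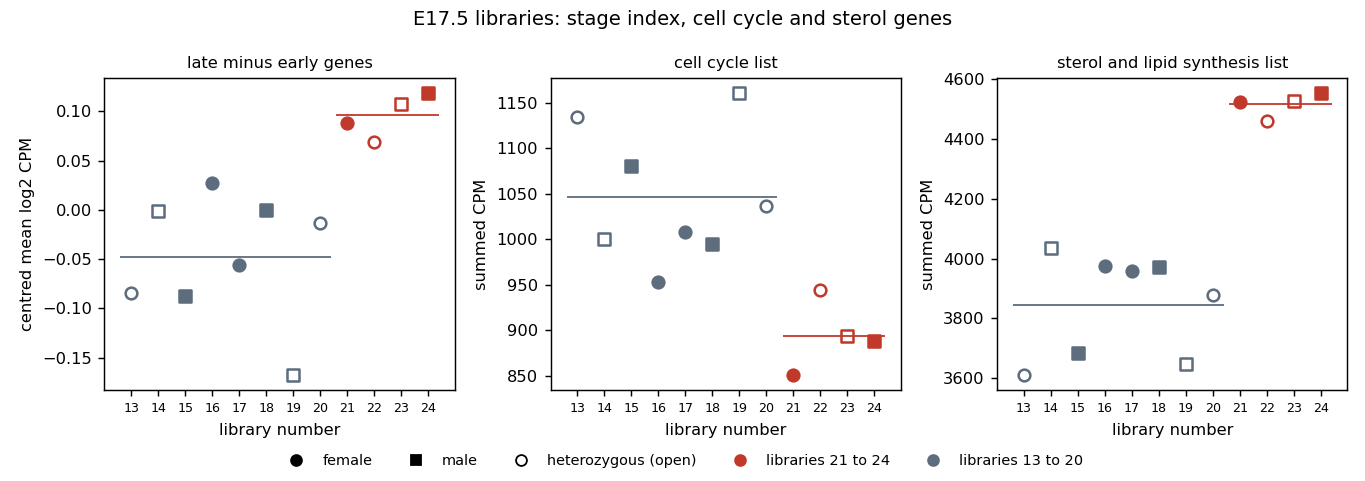
Late minus early gene index (centred mean log2 CPM), summed CPM of the cell cycle list and summed CPM of the sterol and lipid synthesis list, for each E17.5 library by its number. Each point is 1 embryo, horizontal lines are the means of libraries 13 to 20 and 21 to 24, and the y axes do not start at 0. The 4 set libraries lie above all others in the first and last panels (0.07 to 0.12 and 4460 to 4556 CPM) and below all others in the middle panel (851 to 944 CPM).

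All 15 genes of the cell cycle list were below 0 (log2 -0.28 to -0.14, median -0.21), and Top2a, Pcna, Bub1, Ccna2 and Ccnb1 were lower in the set, against 2.07% of all genes. With library 22 or library 23 left out, 8 of the 15 were lower. All 15 were early genes. Their sum was 851, 944, 894 and 889 CPM in libraries 21 to 24 and 953 to 1161 CPM (median 1023) in the others. Top2a, the topoisomerase of chromosome condensation, was at 187, 214, 202 and 202 CPM against 220 to 275 CPM (median 237), a log2 difference of -0.27 ± 0.044. For Ccnb1, the mitotic cyclin B1, the values were 26.7, 32.1, 32.5 and 29.6 CPM against 32.5 to 39.3 CPM (median 35.1), so that library 23 lay just under the lowest of the others. Mki67, the usual marker of dividing cells, was at 251, 268, 246 and 260 CPM against 265 to 333 CPM (log2 -0.21 ± 0.049), and library 22 overlapped the others. In bulk tissue, fewer dividing cells and less RNA of these genes per cell cannot be told apart.

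Of the 15 cell cycle genes 13 had a promoter window, and CCAAT was found in all 13, against 37.4% of all windows. TTTGAA, the cell cycle genes homology region, was found on either strand in 9 of the 13 (69.2%) and in 17.9% of all windows. It was in 0 of the 12 sterol windows. GCGGGAA, searched as a motif like that of E2F factors, was in 0 of the 13. It was in 2 of the 12 sterol windows (16.7%) and in 4.6% of all windows. The windows of Top2a and Ccnb1 are shown with CCAAT and its reverse complement ATTGG in capitals. This motif does not set the lists apart. The sterol windows shown above hold it too, unmarked, with 4 matches in Hmgcs1, 3 in Msmo1 and 1 in Srebf2. TCACNCCA was in none of the 13.
Top2a, chr11:99024140-99024439, minus strand: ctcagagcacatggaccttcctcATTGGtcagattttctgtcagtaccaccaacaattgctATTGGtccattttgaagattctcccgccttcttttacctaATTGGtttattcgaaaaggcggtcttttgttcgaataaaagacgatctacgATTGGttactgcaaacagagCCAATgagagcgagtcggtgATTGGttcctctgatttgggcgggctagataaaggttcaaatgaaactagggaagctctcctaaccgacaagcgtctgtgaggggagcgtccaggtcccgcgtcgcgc
Ccnb1, chr13:100786437-100786736, minus strand: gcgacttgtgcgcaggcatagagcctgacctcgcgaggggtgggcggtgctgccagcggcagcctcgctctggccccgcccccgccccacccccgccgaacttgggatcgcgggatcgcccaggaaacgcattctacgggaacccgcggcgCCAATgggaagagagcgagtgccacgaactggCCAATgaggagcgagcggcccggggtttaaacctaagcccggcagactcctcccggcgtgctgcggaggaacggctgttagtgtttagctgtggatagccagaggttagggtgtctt
Top2a held 6 such matches and Ccnb1 held 2.

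Progenitor genes were more mixed. Of 12 radial glia markers 8 were below 0 and 4 above (log2 -0.20 to 0.23, median -0.06), and 1 was called lower, against 2.07% of all genes. This was Pax6, the transcription factor of dorsal radial glia, at 53.9, 54.5, 53.7 and 50.1 CPM in the set against 56.2 to 65.2 CPM (median 59.9), a log2 difference of -0.20 ± 0.045. The summed radial glia markers overlapped, at 2263 to 2511 CPM in the set and 2408 to 2616 CPM in the others. Of 10 intermediate progenitor markers 9 were below 0 (median -0.15) and 0 were called. Eomes, which marks these cells, was at 108 to 114 CPM against 114 to 144 CPM, with the groups touching at their edges. Markers of the labelled tissue were present in all 12 libraries, with Pax6 and Eomes at the levels above and Tbr1, of deep-layer neurons, at 336 CPM or more. These markers do not show how much tissue of neighbouring regions was included.

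Of 20 genes of synapses and neuronal maturation, 19 were above 0, with a median log2 difference of 0.17, and 0 were called. All 20 were late genes. Their summed level was 4578 to 5000 CPM in the set and 4341 to 4690 CPM in the others, with overlap through library 23. Slc12a5, the chloride exporter KCC2, was at 14.8, 17, 22.3 and 20.6 CPM in libraries 21 to 24, against 11.3 to 15.01 CPM (log2 0.47 ± 0.089). Grin2b, an NMDA receptor subunit, was at 1016, 950, 828 and 892 CPM against 709 to 850 CPM (log2 0.25 ± 0.037). Slc12a5 was highest in the males of the set and Grin2b in the females. Gria2, an AMPA receptor subunit, was the exception, at 1305 to 1647 CPM in the set and 1460 to 1799 CPM in the others (log2 -0.12 ± 0.046).

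The 12 largest differences among genes called higher, with a mean of at least 2 CPM, were mostly late genes with neuronal roles. Cntn6, a contactin of the axon surface, was at 15.8, 17.4, 13.7 and 14.4 CPM in libraries 21 to 24 and at 5.67 to 13.04 CPM (median 9.82) in the others, a log2 difference of 0.70 ± 0.15. Its mean was 1.29 CPM at E12.5 and 27.9 CPM at P25. Rasgrf2, an exchange factor that links calcium to Ras and marks upper-layer neurons, was at 15.99, 17.1, 15.4 and 15.1 CPM against 6.41 to 14.3 CPM (log2 0.61 ± 0.15). Ptk2b, a calcium-activated tyrosine kinase, was at 24.7, 21.4, 20.96 and 21.9 CPM against 9.47 to 17.7 CPM (log2 0.60 ± 0.086). Each of these genes varied widely among the other 8, and in each the lowest of them was library 19. The same held for Nwd2 (49.4 to 59.5 CPM against 22.7 to 47.5 CPM, log2 0.64 ± 0.14) and for Klf5, a zinc finger factor (6.99 to 8.66 CPM against 3.46 to 6.96 CPM, log2 0.50 ± 0.12), where the highest of the others, library 16, all but touched library 21.

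Cobl, an actin nucleator of dendrite growth, Rtn4rl1, a receptor of the Nogo receptor family, and Doc2b, a calcium sensor of vesicle release, were also late genes, with log2 differences of 0.58 ± 0.11, 0.52 ± 0.095 and 0.49 ± 0.11. Doc2b was at 12.9, 13.4, 20.96 and 17.7 CPM in libraries 21 to 24 against 8.90 to 12.9 CPM. The females of the set thus lay barely above the others, and the difference was 0.32 with library 23 left out and 0.12 in females only. Cacna1g, a T-type calcium channel, was at 45.0, 42.8, 57.0 and 47.4 CPM against 29.9 to 40.1 CPM (median 34.7), a log2 difference of 0.49 ± 0.065. Prox1, which marks the dentate gyrus and some interneurons, was at 15.3, 17.3, 25.4 and 18.1 CPM against 11.1 to 15.1 CPM (log2 0.54 ± 0.10), with library 23 well above the rest of the set. Neither Cacna1g nor Prox1 passed the threshold for a late gene. Col1a2, a fibroblast collagen and an early gene, and C1qa, a complement gene of microglia, complete the 12 and are described with their cell types.

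**Figure D3:**
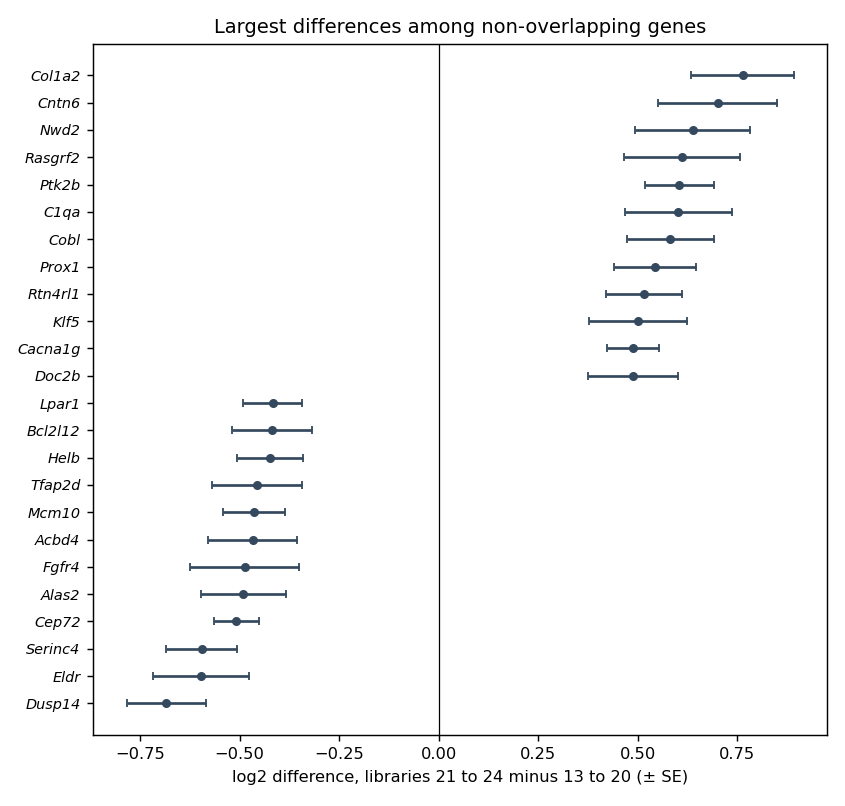
Log2 difference, libraries 21 to 24 minus 13 to 20, with its SE as bars (x axis), for the 12 largest differences in each direction among genes whose libraries do not overlap. They span 0.76 for Col1a2 to -0.68 for Dusp14.

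The 12 largest differences among genes called lower were more mixed. Dusp14, a dual-specificity phosphatase, was at 2.74, 2.87, 3.26 and 2.77 CPM in libraries 21 to 24 against 3.97 to 5.16 CPM (median 4.71), a log2 difference of -0.68 ± 0.10. It was a late gene (7.85 CPM at E12.5 and 39.0 CPM at P25), so it went against the lean of the set. Acbd4 and Tfap2d were late genes too, with differences of -0.47 ± 0.11 and -0.46 ± 0.11. Cep72, a centrosome protein, was at 11.5, 14.8, 12.98 and 12.5 CPM against 16.8 to 20.9 CPM (log2 -0.51 ± 0.057). Mcm10, a replication initiation factor, was at 7.08, 8.23, 8.36 and 7.73 CPM against 8.93 to 12.8 CPM (log2 -0.46 ± 0.079). Both were early genes, as were Helb, a DNA helicase (-0.42 ± 0.083), Bcl2l12 (-0.42 ± 0.10), Serinc4 (-0.60 ± 0.090) and the long noncoding RNA Eldr (-0.60 ± 0.12). Lpar1, a receptor for lysophosphatidic acid that is expressed in the ventricular zone, was at 9.05 to 11.1 CPM against 11.9 to 14.9 CPM (log2 -0.42 ± 0.074) and was neither early nor late. Fgfr4, a growth factor receptor (-0.49 ± 0.14), and Alas2, an erythroid enzyme, make up the rest.

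Among abundant RNAs the differences were smaller. Map1b, a microtubule protein of growing axons, was at 5645, 5043, 4984 and 5014 CPM in the set against 4451 to 4884 CPM (log2 0.16 ± 0.035). Kif1b, a kinesin that carries synaptic vesicle precursors, was at 1108 to 1174 CPM against 1050 to 1073 CPM (log2 0.11 ± 0.026). H3f3b, a gene of the histone variant H3.3, was at 655, 694, 735 and 732 CPM against 813 to 854 CPM (log2 -0.25 ± 0.032), the clearest gap of the 3. Hnrnpk and Ddx17, RNA-binding proteins that are more abundant in early cortex, differed by -0.10 ± 0.030 and -0.07 ± 0.027. The genes called higher had a median transcript length of 5154 bases and a median GC content of 51.5%, against 3398 bases and 46.8% for those called lower and 2975 bases and 48.7% for all. Across 18889 genes the set difference had a Spearman correlation of 0.13 with length and of 0.13 with GC content. The part of length and GC content in the set difference was not tested.

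Markers of cell types differed in ways that were mostly not shared by the whole set. Olig2, a transcription factor of the oligodendrocyte lineage, was at 11.4, 11.4, 15.6 and 13.9 CPM against 7.49 to 11.3 CPM (log2 0.48 ± 0.10), and 10 of 11 markers of that lineage were above 0 (median 0.20). All 11 were late genes. Over all late genes 68.8% were above 0 and 5.54% were called higher. The sums of the 11 markers, 107 to 137 CPM and 90.1 to 116 CPM, overlapped. C1qa was at 3.75, 2.78, 2.22 and 2.48 CPM against 1.47 to 1.98 CPM (log2 0.60 ± 0.13), and 9 of 11 microglia markers were above 0 (median 0.22), with sums of 57.5 and 55.5 CPM in libraries 21 and 22, 46.1 and 48.5 CPM in libraries 23 and 24, and 45.0 to 48.3 CPM in the others. The females of the set lay clear of the others in this sum and the males did not. Of the defining microglia genes, P2ry12 went the other way (3.33 to 5.32 CPM against 4.24 to 5.84 CPM, log2 -0.23 ± 0.11). Of the 11 microglia markers 10 were late genes, so the shares of late genes given above stand beside them too. Cell content and the lean toward late genes were not tested apart.

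Col1a2 was at 5.75, 8.06, 5.70 and 8.11 CPM against 2.98 to 4.97 CPM (median 4.26), a log2 difference of 0.76 ± 0.13 and the largest among the genes called higher at 2 CPM or more. Of 10 markers of meninges and fibroblasts 9 were above 0 (median 0.39), with sums of 51.5, 71.0, 56.1 and 64.1 CPM against 40.5 to 56.3 CPM. Col1a1, the partner chain, followed in libraries 22 and 24 only, at 7.12 and 8.31 CPM against 3.44 and 2.09 CPM in libraries 21 and 23 and 2.15 to 4.06 CPM in the others. Slc6a13 and Aldh1a2, also of meninges, were under the count filter, at 0 to 21 and 0 to 10 counts per library.

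Red cell genes were on the lower side. Of the 7 measured 6 were early genes, and over all early genes 32.4% were above 0 and 4.16% were called lower. All 7 erythroid genes measured were below 0 (median -0.30), and Alas2, the first enzyme of heme synthesis in red cells, was called, at 7.33, 7.55, 9.81 and 9.35 CPM against 9.91 to 15.5 CPM (log2 -0.49 ± 0.11). The sums were 211, 202, 255 and 262 CPM in libraries 21 to 24 and 241 to 389 CPM (median 288) in the others, so the females of the set were below all others and the males were not. The globin genes share near-identical copies and their split between copies is uncertain. Of endothelial markers 8 of 9 were above 0 (median 0.09), with sums of 136 and 133 CPM in libraries 21 and 22 and 160 and 152 CPM in libraries 23 and 24, against 128 to 139 CPM in the others. Astrocyte and pericyte sums overlapped between the groups. Whether blood, vessel or meningeal content had a part in the differences of other genes was not tested.

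Markers of neighbouring regions split the set by embryo. Of 13 genes of ventral telencephalon and striatum, 11 were above 0 (median 0.38) and 0 were called. Their sums were 78.6 and 80.7 CPM in libraries 21 and 22, the low end of the 12, and 107 and 138 CPM in libraries 23 and 24. Isl1, a transcription factor of striatal neurons, was at 0.00, 0.31, 4.50 and 9.58 CPM in libraries 21 to 24 and at 0.23 to 3.79 CPM (median 0.69) in the others, and Ebf1, another, at 3.22, 4.65, 12.4 and 26.6 CPM against 4.03 to 16.9 CPM. Ventral markers were also raised in libraries 17 and 18, at 112 and 99.9 CPM, outside the set. Interneuron markers followed this split, with sums of 350, 375, 459 and 459 CPM against 340 to 406 CPM, although all 13 had a set difference above 0 (median 0.12). Lhx6, a transcription factor of interneurons from the medial ganglionic eminence, was the only one called, at 72.5, 70.9, 81.4 and 75.5 CPM against 61.9 to 69.7 CPM (log2 0.19 ± 0.036). That is 1 of 13, against 2.45% of all genes and 5.54% of late genes, and 8 of the 13 were late.

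Medial markers leaned to the higher side, and few other regional markers were called. Calls of 1 gene per list, as below, stand beside 2.45% of all genes called higher and say little about a list. Of 11 listed hippocampal and medial genes 7 were measured, 6 of them above 0 (median 0.23), and Prox1 was the only one called. Their sums were 421, 476, 538 and 474 CPM in libraries 21 to 24 against 389 to 465 CPM (median 417) in the others. Libraries 22, 23 and 24 thus lay above all others, and library 21 lay within their range. Whether dissection had a part in this was not tested. Zbtb20, abundant in hippocampus, was at 360, 414, 459 and 410 CPM against 332 to 406 CPM, and Wnt3a, of the cortical hem, had 0 or 1 count in every library. Choroid plexus was nearly absent from all 12 libraries: of 11 markers 8 were under the count filter, Ttr among them at 0 to 71 counts per library. Lmo4, a LIM protein of rostral and upper cortex, was at 109.04, 114, 125 and 118 CPM against 70.1 to 106 CPM (log2 0.37 ± 0.070), the 1 of 10 rostral and lateral genes called. Of 9 caudal and medial area genes 0 were called, and Tenm3, a teneurin, was at 332 to 413 CPM against 306 to 348 CPM. Thalamic and olfactory bulb sums overlapped.

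**Figure D4:**
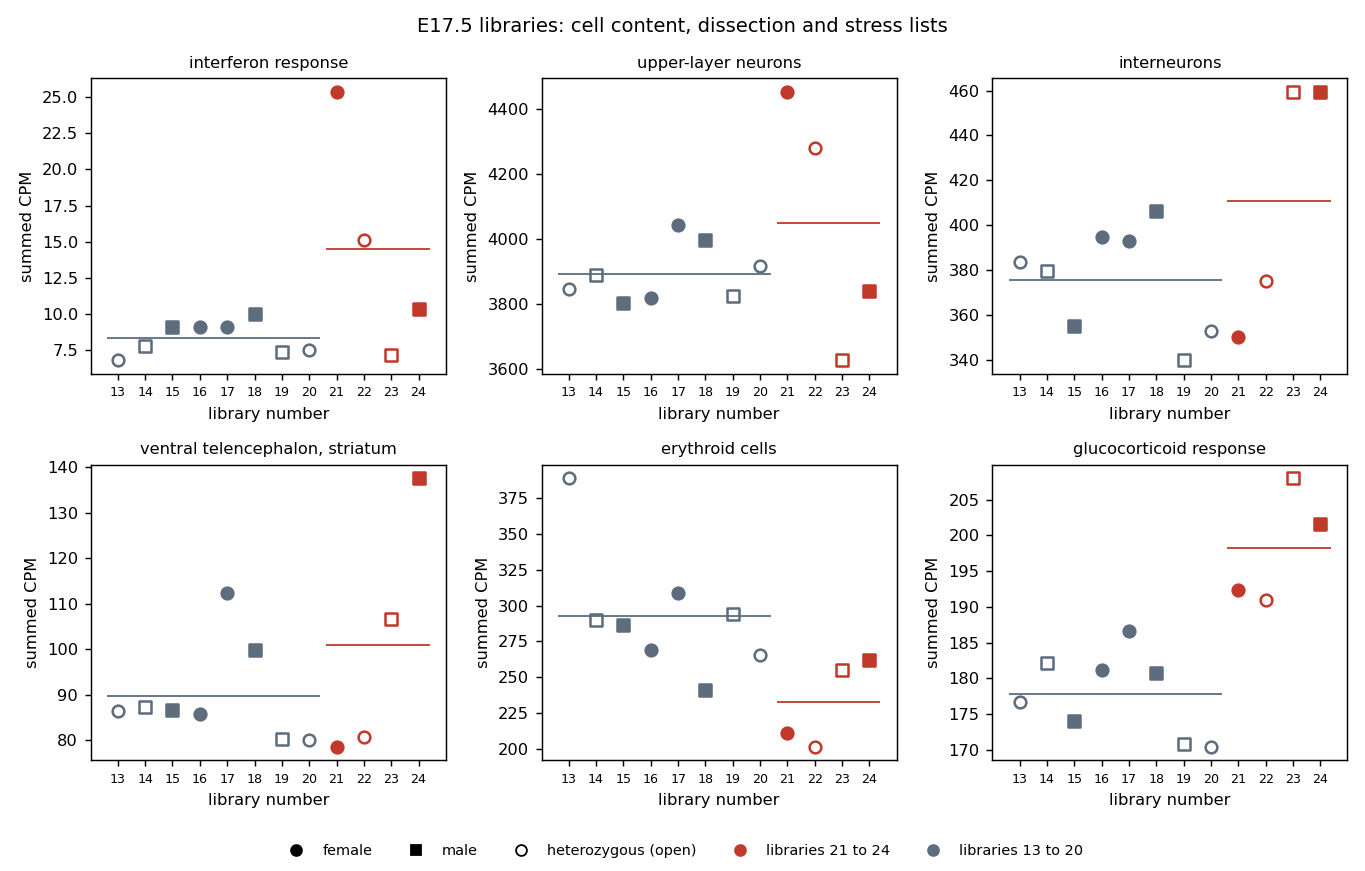
Summed CPM of 6 gene lists (y axes, not starting at 0) for each E17.5 library by its number. Each point is 1 embryo and horizontal lines are the means of libraries 13 to 20 and 21 to 24. Interferon and upper-layer sums are high in libraries 21 and 22 (25.4 and 15.2 CPM, 4452 and 4278 CPM), interneuron and ventral sums in libraries 23 and 24 (both 459 CPM, 107 and 138 CPM), and only the glucocorticoid list sets all 4 libraries (191 to 208 CPM) above all others (170 to 187 CPM).

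The interferon response had the highest median of the 40 lists and did not mark the set as a whole. All 8 measured genes were above 0 (median 1.17), and 0 were called. Their sum was 25.4 CPM in library 21 and 15.2 CPM in library 22, but 7.15 and 10.3 CPM in libraries 23 and 24, against 6.81 to 10.001 CPM in the others. Oasl2, induced by interferon, was at 5.36, 2.61, 1.11 and 1.21 CPM against 0.82 to 1.43 CPM. Usp18, which limits the response, was at 2.06 and 1.11 CPM in libraries 21 and 22 and at 0.13 and 0.58 CPM in libraries 23 and 24, against 0.00 to 0.25 CPM. The wild type and the heterozygous female were thus both high, and the males of the set were near the range of the others.

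Other stress lists differed little, or mainly in the males of the set. The glucocorticoid list was the only other list, beside sterol synthesis and cell cycle, whose sums did not overlap, at 192, 191, 208 and 202 CPM against 170 to 187 CPM (median 179). Of its 13 genes 12 were above 0 (median 0.11), 11 were late genes, and 3 were called higher, against 2.45% of all genes and 5.54% of late genes. Sgk1, a kinase induced by glucocorticoids, was at 27.7, 26.6, 27.5 and 28.4 CPM against 18.4 to 24.8 CPM (log2 0.34 ± 0.070), and Per1, also a clock gene, at 26.4, 25.8, 26.8 and 25.0 CPM against 20.9 to 24.5 CPM (log2 0.20 ± 0.047). Sult1a1, the third, was near the detection limit, with at least 8 counts per library. Fkbp5, a standard target, overlapped (55.5 to 58.4 CPM against 48.5 to 60.0 CPM). Of 16 clock genes, 15 of them late, Per1 alone was called, against the same shares of all genes and of late genes.

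Among immediate-early genes, which respond to neuronal activity and to handling, Nr4a3 was called, at 90.3, 82.0, 108.98 and 87.4 CPM against 57.1 to 79.9 CPM (log2 0.42 ± 0.076, and 0.28 with library 23 left out). Fos, the best known of them, was at 0.47 CPM or less in all 12 libraries. The sum of the list was 233, 231, 340 and 272 CPM against 203 to 242 CPM, high in the males. The same 2 libraries were high in Hspa5, the chaperone of the endoplasmic reticulum, at 271 and 241 CPM, against 184 and 194 CPM in libraries 21 and 22 and 159 to 190 CPM in the others. Ddit4 and Atf4, of the integrated stress response, were called with differences of 0.18 ± 0.050 and 0.08 ± 0.031, and Bbc3, a p53 target that promotes cell death, with 0.32 ± 0.076. With Nr4a3, these were 1 of 17 immediate-early, 2 of 15 stress response and 1 of 12 p53 genes, against 2.45% of all genes. Of 10 heat shock genes and 18 genes of hypoxia and glycolysis 0 were called, and the medians were 0.00 and 0.05. Mitochondrially encoded, ribosomal protein and nuclear-retained RNAs overlapped between the groups, with 0 members called in each list.

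Upper-layer genes also divided the set. The summed level was 4452 and 4278 CPM in libraries 21 and 22, above the 3803 to 4042 CPM of the others, and 3627 and 3840 CPM in libraries 23 and 24. Pou3f3 was at 834 and 753 CPM in the females of the set and at 644 and 676 CPM in the males, against 698 to 762 CPM. Among the others the upper-layer sums were 3819 to 4042 CPM in females and 3803 to 3996 CPM in males. Within the set, sex coincides with these differences and each sex has 1 embryo per genotype, so sex, dissection and litter cannot be told apart there.

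Genotype, the comparison the study was made for, is balanced over the set, so the set term barely moves the size of a genotype difference. It does change the error. The set was chosen because the same counts put it apart, so the term takes up spread that was picked for being large, and standard errors and p-values with the term depend on that choice and may be too small. They are given as a description beside the values without the term, which do not depend on it. Without the term Chd8 fell by 0.49 on the log2 scale in heterozygotes (SE 0.033, edgeR's quasi-likelihood test, Benjamini-Hochberg adjusted p = 1.2e-06, lower in 6 of 6 heterozygous libraries), and with it by 0.49 (SE 0.028, edgeR adjusted p = 1.99e-08). The log2 difference was -0.55 ± 0.048 within the set and -0.46 ± 0.034 within the others, and the difference between these, -0.09 ± 0.058, did not pass (adjusted p = 1).

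Adding the set as a covariate changed how many genes were called between genotypes. Without it 19 of 18991 genes passed (0.100%), 13 that rose and 6 that fell in heterozygotes. With it 76 were under the same threshold (0.400%), 49 higher and 27 lower, and all 19 were among the 76, with the same sign. The larger count rests on the term chosen from these libraries and is no independent evidence for the added genes. Pan2, a subunit of a poly(A) nuclease, rose from 60.4 ± 4.03 to 76.6 ± 6.04 CPM (SD, n = 6 each), with an adjusted p of 0.000299 in edgeR with the set and 0.00922 without it. Igfbp4, which binds insulin-like growth factors, fell from 32.6 ± 1.09 to 24.8 ± 1.97 CPM (edgeR adjusted p = 0.00064 and 0.00516). Rims2, a scaffold of the presynaptic active zone, fell from 56.5 ± 4.40 to 42.9 ± 3.02 CPM (edgeR adjusted p = 0.00119 and 0.00654). Zcwpw1, Xrcc4 of DNA end joining, Csad of taurine synthesis and Ints12 of the Integrator complex rose with and without the term, as did Tmem209 and BC025920. The counts depended on the tool and the embryos, with 211 and 105 calls in DESeq2 with and without the term, and in edgeR 25 to 127 and 12 to 44 with 1 library left out, in both cases most without heterozygous library 23.

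Of the 76, 57 were called only with the set term. Rph3a, an effector of Rab3 in vesicle release, was at 70.8 and 78.0 CPM in wild type and 62.2 and 69.3 CPM in heterozygous libraries of the set, and at 58.9 to 65.1 and 47.0 to 51.0 CPM in the others. Its genotype difference was -0.28 ± 0.042 with the set (edgeR adjusted p = 0.00374) and -0.27 ± 0.092 without it (edgeR adjusted p = 0.424), so the estimate stayed and its error was smaller with the term. Zbtb40 was likewise at 23.9 and 23.8 CPM in wild type and 27.9 and 29.2 CPM in heterozygous set libraries, against 18.6 to 20.7 and 21.7 to 25.8 CPM in the others, a log2 difference of 0.27 (edgeR adjusted p = 0.0121 with, 0.347 without). Hjurp, the chaperone of centromeric histone CENP-A, differed by 0.19 (edgeR adjusted p = 0.00226 with, 0.0644 without). Ccdc163, Wars2 and Minar2 differed by 0.55, 0.32 and -0.29 without the term and by 0.55, 0.32 and -0.29 with it, so only the call changed (edgeR adjusted p = 0.0503, 0.0544 and 0.0544 without, 0.0031, 0.0153 and 0.0201 with). Ermard, Bcdin3d, Oard1 and Csf2ra, at 0.36, 0.28, 0.26 and 0.32 without the term, likewise kept their size and passed with the term alone.

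**Figure D5:**
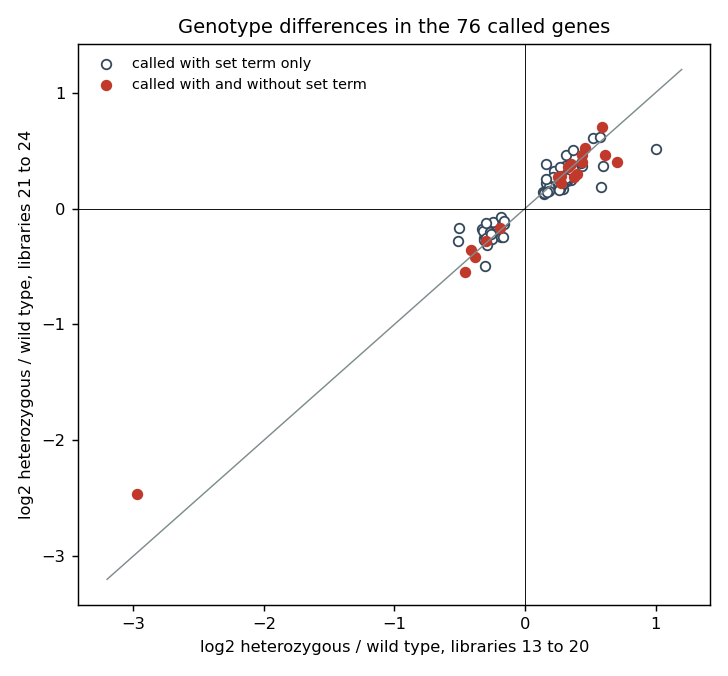
Log2 heterozygous over wild type in libraries 13 to 20 (x axis, 4 against 4) and in libraries 21 to 24 (y axis, 2 against 2) for the 76 genes called with the set as a covariate. Filled points are the 19 genes also called without it, and the diagonal marks equal differences. The genes were called on all 12 libraries together, so their shared sign in both groups is partly fixed by that choice.

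The genotype difference itself was not shown to differ between the set and the others. The interaction of genotype and set called 0 of 18991 genes (edgeR and DESeq2, adjusted p under 0.05), and 666 genes had an unadjusted p under 0.05 in edgeR. The smallest p-values were those of Gm21092, Stard9 and Nxph2 (adjusted p = 1 each in edgeR). In Stard9, a kinesin, wild type was above heterozygous in the set (53.3 and 47.7 CPM on average) and below it in the others (47.4 and 53.6 CPM), an interaction of -0.34 ± 0.084. Within the other 8 libraries 23 genes were called (0.121%), and within the set Chd8 alone (0.00527%), where 2 embryos of each genotype leave little power. None of the 466 and 393 genes that were higher or lower in the set was called for genotype with the set term or for the interaction, and none of the 17 sterol or 15 cell cycle genes was. These counts stand beside 0.400% and 0% of all genes called in the same comparisons, and counts of 0 among 17 and 15 genes say nothing about those lists. The p-values rest on separately sequenced embryos. By the labels these include pairs matched for litter and sex, but which embryos were paired is not given. Litter is therefore not in the fits.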

How the data were processed

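Per the labels' protocols, polyA-enriched RNA of individual mice was sequenced in paired-end reads. The authors deposited raw read counts per gene, 1 table per age (55359 genes), which are not normalized. The submitters' processing notes name STAR 2.7.9a, featureCounts, Subread and mm39 without roles. Annotation release and strand setting: not given in the sources used here. Overlapping, antisense and near-identical genes may share reads. The column of heterozygous female library 22 carries another replicate number than its label and was assigned from its library number, sex and genotype.

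Counts were scaled by TMM, filtered with filterByExpr and fitted with glmQLFit in edgeR 4.0.16 (R 4.3.3). P-values were adjusted by Benjamini-Hochberg with a threshold of 0.05. DESeq2 1.42.0, other scaling and filters, subsets of libraries and each library left out were alternatives. The steps were tested on simulated data. There the rule of non-overlapping libraries recovered 144 of 197 changed genes and made 97 false calls over 18723 genes. Genotype with the set term recovered 146 of 194 with 11 false calls. The interaction recovered 96 of 198 with 4 false calls, and 6 of 50 among genes changed 1.25-fold. GENCODE release M21 gave only transcript length and GC content, and RefSeq windows (GRCm38.p6) the promoters. Sums of lists are sums of CPM over the members that passed the filter, and principal components used log2 CPM with a prior count of 2.

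The members and the gene lists were chosen with earlier results of these data known. Named genes are the 12 largest differences each way among non-overlapping genes of at least 2 CPM (gene models without a proper symbol and pseudogenes left out), up to 4 non-overlapping members per list or the 2 most abundant where there is none, the 3 most abundant non-overlapping genes each way, Chd8, up to 10 genotype genes with the set term and up to 10 called only with it, and the 3 smallest interaction p-values. Other genes, such as Slc12a5, Isl1, Col1a1 and Hspa5, were named after their values were seen, and some genes that the rule names are not reported here. PCR copies cannot be told from separate molecules in these counts, and errors are therefore taken between embryos. In 6 pairs of wild type and heterozygous libraries with the same sex and replicate number, deviations from the group means had correlations of -0.01 to 0.26, not all above 0.1, so the numbers were not taken as pairs. Over all pairs from different groups the mean correlation was 0.04, 0.10 and 0.13 for replicate numbers 1, 2 and 3. For unlike numbers it was -0.04.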

Additional observations from a re-analysis of the deposited data

Results flagged for a closer look

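Of 146 groups of library values examined, 6 held a library whose distance from its nearest neighbour was large for the range of its group, where chance gives about 1 in 20. In the set, library 21 had the highest Map1b, at 5645 CPM against 5043 CPM in the next. Among the other libraries, Ddx17 was highest in library 18, at 1096 CPM against 1066 CPM in the next. The erythroid sum was highest in library 13, at 388.6 CPM against 309.0 CPM in the next, and the sum of genes of immature neurons and axon growth in library 17, at 23265 CPM against 22471 CPM. Library 15 had the fewest counts, 23774502 against 30877298 in the next, and the fewest genes with at least 10 counts, 17198 against 17982.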

How the results depend on the processing

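The set against the other libraries had 466 genes higher and 393 lower. The counts were 978 and 848 against libraries 13 to 16 only, 1029 and 1054 against libraries 17 to 20 only, 2102 and 2258 in wild type only, 2248 and 2107 in heterozygotes only, 2979 and 2820 in males only and 1894 and 2017 in females only, where fewer libraries make separation easier. At a ratio of 5 to 4 or more they were 73 and 106. Leaving out 1 library gave 490 to 885 higher and 429 to 865 lower, most without the heterozygous female of the set, library 22, and next for the lower genes without its heterozygous male, library 23 (627). In these fits the sterol list had 12 to 13 members higher and the cell cycle list 4 to 8 lower, most without library 22 or 23. At a ratio of 5 to 4 or more they had 1 and 0.

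With the set term genotype called 76 genes, 211 with DESeq2 and 397 with no low-count filter, and 25 to 127 with 1 library left out, highest without library 23 and 25 to 49 without any 1 of libraries 14, 17, 18, 19, 20, 21, 22 and 24. Without the set term it called 19 genes, 105 with DESeq2, 216 with no filter and 12 to 44 with 1 library left out, highest without library 23 and 12 without any 1 of libraries 13, 14, 18, 19, 20 and 24. With the replicate block, which holds the set because the set is replicate 3, both fits called 76. The interaction called 27 genes with no filter and 0 to 1 with 1 library left out (1 without library 21 or 24). With no filter 10557 genes were late, and at a log2 of 2 the early genes numbered 2476. No direction reversed. The test of depth had 4 against 8 libraries, so differences smaller than their spread were not detectable.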

Other observations

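Some genes outside the lists, named after their values were seen, are given as values. Mvd, a mevalonate pathway enzyme, was at 25.5, 25.5, 26.5 and 25.1 CPM in libraries 21 to 24 and at 17.1 to 20.4 CPM in the others (log2 0.45 ± 0.054). Aacs, which turns acetoacetate into a precursor of sterols, was at 65.7, 61.9, 75.0 and 68.1 CPM against 50.7 to 58.9 CPM (log2 0.32 ± 0.048). Among genes of replication and its repair, Rad54l was at 9.91 to 12.1 CPM in the set against 13.3 to 16.3 CPM, Fancd2 at 8.49 to 9.96 CPM against 11.2 to 15.04 CPM and Timeless at 16.05 to 18.4 CPM against 21.7 to 24.4 CPM. Among genes of synapses and excitability, Shank3 was at 37.6 to 46.4 CPM against 30.02 to 36.8 CPM, the T-type calcium channel Cacna1i at 21.4 to 24.2 CPM against 14.5 to 18.4 CPM and the potassium channel Kcnd2 at 30.2 to 35.6 CPM against 20.4 to 28.8 CPM.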
